A study of Mus musculus with 10 samples.

Results

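The serotonin receptor genes described here were the 10 genes Htr1a, Htr1b, Htr1d, Htr1f, Htr2a, Htr2c, Htr4, Htr5a, Htr5b and Htr7, taken by symbol from the 56691 Ensembl genes of an RNA-seq count table. They were followed in 10 libraries, 1 per wild-type mouse, labelled as medial habenula, a small epithalamic nucleus with many cholinergic neurons. The 6 withdrawal mice received nicotine ditartrate at 4 mg/kg by the intraperitoneal route, 2 injections a day for 14 days, and then saline from day 15. The 4 controls had saline injections only, and tissue was taken on day 17 in both groups. The sources used here name no strain, sex, age or batch. The source label names cholinergic neurons obtained by cell sorting, while the series text names brain tissue. The comparison asks which transcripts differ in this nucleus during nicotine withdrawal.

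Serotonin acts on a family of receptors that are sorted by the G protein they engage. The Htr1 and Htr5 receptors couple to inhibitory Gi/o proteins, the Htr2 receptors to Gq and phospholipase C, and Htr4 and Htr7 to Gs, which stimulates adenylyl cyclase. The habenula receives serotonergic fibres from the raphe nuclei and projects back towards them. Serotonin receptors there act in cells that receive serotonin from elsewhere.

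Library totals ran from 15023448 to 22026333 counts. Of the 12 medial habenula markers, which include Chat, Pou4f1 and Chrnb4, none was at 0 counts in any library, and their summed level lay between 1642 and 2470 CPM (counts scaled by library size and TMM factor) in 8 libraries. It was 70.3 CPM in withdrawal 2 and 55.0 CPM in control 2. Markers of hippocampal and cortical excitatory neurons summed to 364 to 1044 CPM in the 8 habenula-rich libraries, with 665 CPM in withdrawal 2 and 2719 CPM in control 2. Glial and choroid plexus transcripts were present in every library. The results are therefore given with all 10 libraries and again with the 8 habenula-rich libraries (5 withdrawal, 3 control), a choice made after these levels were known. Markers of serotonergic neurons (Tph2, Slc6a4, Fev, Lmx1b and En1) summed to between 1.004 and 6.62 CPM over all 10 libraries, and Slc6a4, the serotonin transporter, was at 0 counts in 3 of them.

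In the 8 habenula-rich libraries, Htr5b and Htr2c were the leading receptor transcripts. Levels are compared between genes on the deposited FPKM scale, which divides by gene length. Htr5b, a receptor that is functional in rodents and a pseudogene in humans, averaged 25.6 ± 3.72 FPKM (SD, n = 8), with a range of 20.5 to 30.4 FPKM. Htr2c, the Gq-coupled receptor whose transcript is edited and which is also abundant in choroid plexus, averaged 23.6 ± 4.91 FPKM, with a range of 19.1 to 33.1 FPKM. The mean ± SD ranges of these 2 genes overlapped, and the means exceeded the FPKM of 88.3% and 87.0% of the 14928 genes tested. Htr7, a Gs-coupled receptor, followed at 8.39 ± 3.26 FPKM and Htr5a, the paralogue of Htr5b, at 4.12 ± 0.378 FPKM, and neither overlapped its neighbours in mean ± SD, although the lowest library of Htr7 (3.34 FPKM) lay below that of Htr5a (3.54 FPKM).

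Below these lay Htr4 (2.61 ± 0.763 FPKM), Htr2a (2.33 ± 0.397), Htr1b (1.67 ± 0.606), Htr1d (1.04 ± 0.491) and Htr1a (1.02 ± 0.451 FPKM), with overlapping mean ± SD between neighbours in this order. Htr1f, a Gi/o-coupled receptor targeted by migraine drugs, was lowest at 0.211 ± 0.125 FPKM. Genes with a mean of at least 1 FPKM over the 10 libraries were tested, which kept 8 of the 10 receptors. Htr1d (mean 0.918 FPKM) fell just outside that minimum, and Htr1f (0.334 FPKM) fell further outside, while Htr1b (2.13 FPKM) was the lowest that passed.

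**Figure D1:**
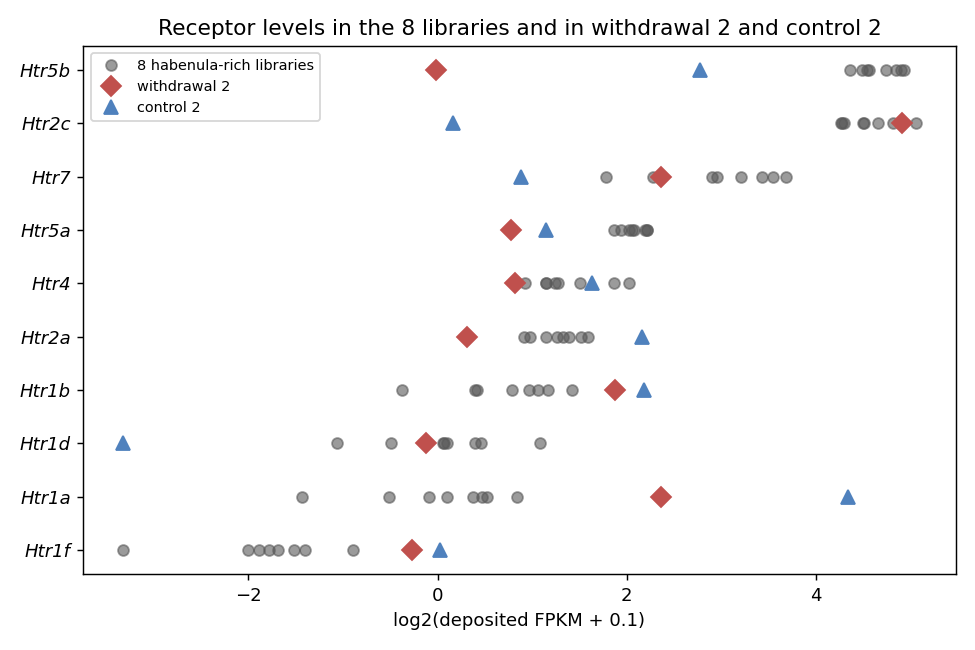
Level of each receptor transcript as log2(deposited FPKM + 0.1), 1 row per gene, with grey points for the 8 habenula-rich libraries, a diamond for withdrawal 2 and a triangle for control 2. Htr5b and Htr2c stand at the high end in the 8 libraries, with means of 25.6 and 23.6 FPKM, while Htr1a is the highest receptor in control 2.

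Set against the 8 habenula-rich libraries, withdrawal 2 and control 2 had a different receptor make-up. These values are a description without a test, since the split of the libraries came from the data. Htr5b lay between 39.0 and 57.01 CPM in the 8 libraries, against 1.74 CPM in withdrawal 2 and 15.7 CPM in control 2. Htr5a lay between 19.02 and 24.0 CPM, against 8.69 CPM in withdrawal 2 and 13.6 CPM in control 2. These were the 2 of 8 tested receptors for which every habenula-rich library lay above both others, which held for 12.7% of all tested genes. The mean Htr5b level of the 8 libraries was 27.8 times that of withdrawal 2 and 3.08 times that of control 2.

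Htr1a and Htr1b went the other way. Htr1a, an inhibitory receptor that is abundant in hippocampus, lay between 1.17 and 7.57 CPM in the 8 libraries, against 22.7 CPM in withdrawal 2 and 108 CPM in control 2. Htr1b, an inhibitory receptor often found on nerve terminals, lay between 3.15 and 11.6 CPM, against 17.03 CPM in withdrawal 2 and 25.1 CPM in control 2. Every habenula-rich library lay below both others for these 2 of the 8 tested receptors, against 10.8% of all tested genes. The same held for the untested Htr1f, at 0 to 1.12 CPM in the 8 libraries, 1.89 CPM in withdrawal 2 and 2.83 CPM in control 2. Htr1f had 0 counts in withdrawal 3, and 3 counts there would be 0.150 CPM.

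Htr2c separated withdrawal 2 from control 2. The 8 libraries held 174 to 295 CPM of its transcript, withdrawal 2 held 281 CPM and control 2 held 11.4 CPM. Choroid plexus markers summed to between 111 and 10276 CPM in the 8 libraries, 13310.4 CPM in withdrawal 2 and 82.5 CPM in control 2, and all 7 were above 0 counts in every library. Their summed level was 111 CPM in withdrawal 3, where Htr2c was still 174 CPM. It was 9768 CPM in withdrawal 6, where Htr2c was 295 CPM. Control 3, with a sum of 7387 CPM, had 178 CPM of Htr2c, and control 4, with 10276 CPM, had 227 CPM. The part of choroid plexus in the Htr2c level was not tested. Htr2a, the Gq-coupled receptor of cortical pyramidal cells, was 6.46 CPM in withdrawal 2 and 29.4 CPM in control 2, on either side of the 9.77 to 15.8 CPM of the 8 libraries. Htr1d, an inhibitory receptor related to Htr1b, had 0 counts in control 2, where 3 counts would be 0.163 CPM, and 1.21 to 6.38 CPM in the 8 libraries.

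**Figure D2:**
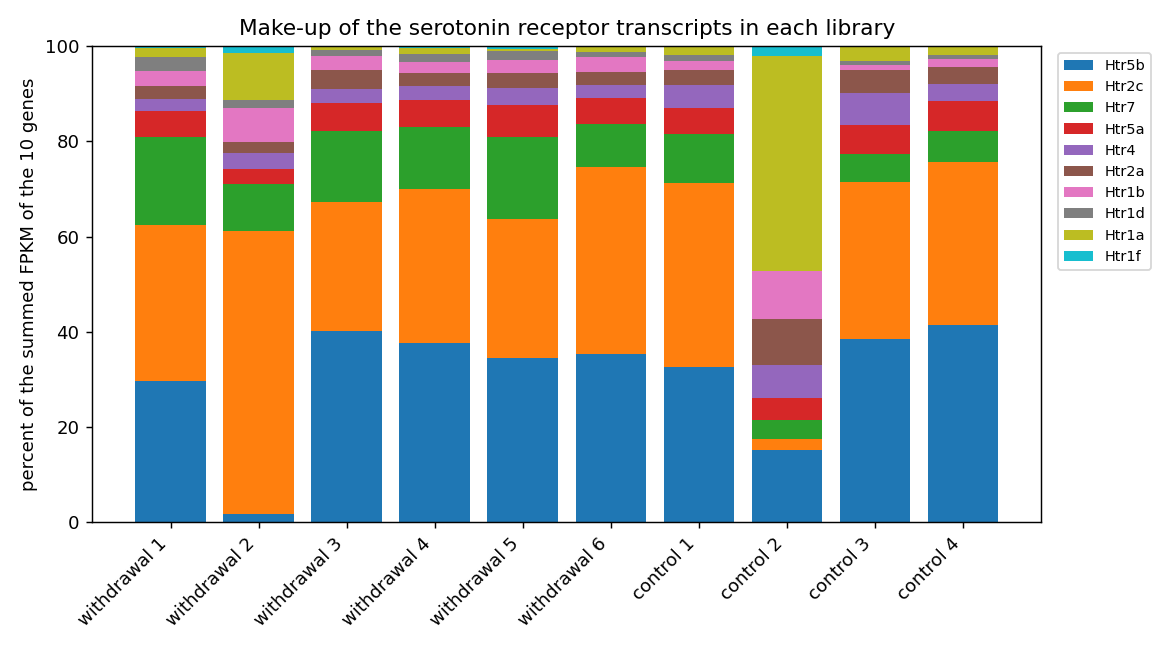
Share of each receptor in the summed deposited FPKM of the 10 genes, in percent, with 1 stacked bar per library, withdrawal libraries on the left and controls on the right. In withdrawal 2 Htr2c took 59.3% of the sum and Htr5b 1.76%, and in control 2 Htr1a took 45.2% and Htr2c 2.30%.

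Expressed as shares of the summed FPKM of the 10 genes, Htr5b took between 29.8% and 41.5% and Htr2c between 27.03% and 39.3% in the 8 habenula-rich libraries. The Gi/o-coupled receptors summed to between 30.0 and 38.8 FPKM in the 5 withdrawal libraries and between 28.8 and 38.1 FPKM in the 3 controls. The Gq-coupled receptors summed to between 21.7 and 35.5 FPKM in withdrawal and between 21.9 and 30.2 FPKM in controls. The Gs-coupled receptors Htr4 and Htr7 summed to between 9.94 and 14.5 FPKM in withdrawal and between 7.30 and 10.9 FPKM in controls. The ranges of the groups overlapped in all 3 classes, although the members of the Gs class moved in opposite directions.

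With all 10 libraries, none of the 8 tested receptors passed the quasi-likelihood test of edgeR (adjusted p below 0.05 over 14928 genes), while 0.208% of all tested genes did (0.0335% higher and 0.174% lower). Of the 8, 3 had an unadjusted p under 0.05 (Htr4, Htr7 and Htr2a), as did 15.4% of all genes, and DESeq2 called 1, Htr4, against 2.55% of all genes. In the 8 habenula-rich libraries, 3 of the 8 tested receptors passed: Htr7 and Htr1b rose and Htr4 fell. In that comparison 14.0% of all tested genes passed, 6.36% higher and 7.63% lower. DESeq2 called 19.4% of them, and 4611 of the 14928 had an unadjusted p under 0.05 in edgeR. The median log2 change of the 8 receptors was 0.030 with 10 libraries and -0.031 with 8, beside 0.0034 and 0.0077 over all tested genes. In bulk RNA, a change in the number of cells of a type and a change in transcript per cell cannot be told apart.

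**Figure D3:**
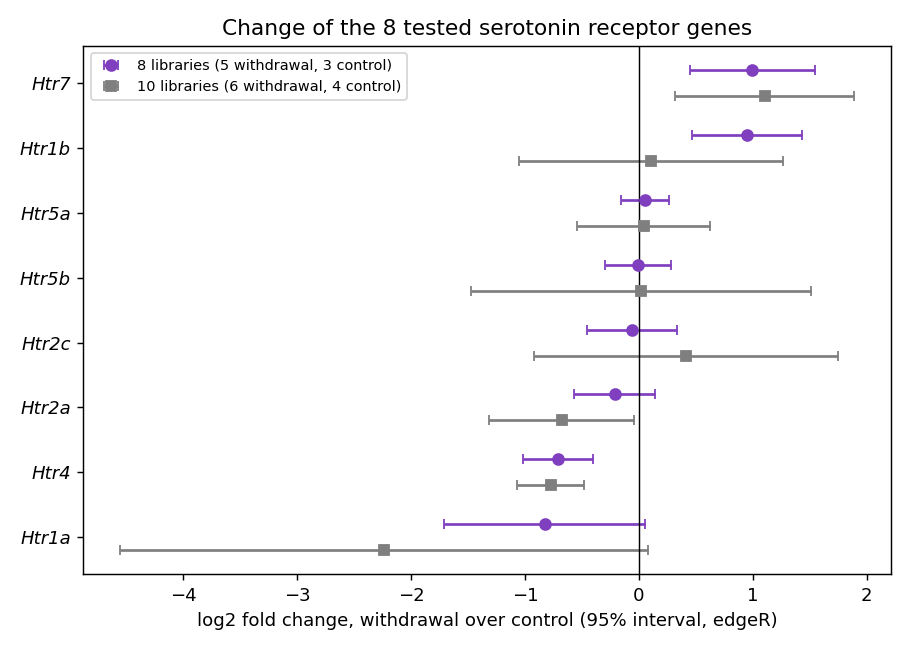
Log2 fold change of the 8 tested receptor genes, withdrawal over control, with 95% intervals from edgeR. Circles show the 8 habenula-rich libraries and squares all 10 libraries, and the 8-library intervals of Htr7, Htr1b and Htr4 lie clear of 0.

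Htr4 was the receptor whose groups did not overlap in all 10 libraries. It had between 8.24 and 11.1 CPM in the 6 withdrawal libraries, with a median of 10.1 CPM, against 17.05, 17.7, 19.4 and 13.1 CPM in controls 1 to 4. All 6 withdrawal libraries lay below all 4 controls, as they did in 1.69% of all tested genes, and 3.31% had groups apart in either direction. The means were 9.82 ± 1.12 CPM in withdrawal and 16.8 ± 2.67 CPM in controls (SD, n = 6 and 4), with a log2 change of -0.77 ± 0.131 (SE) and an adjusted p of 0.0578 in edgeR. Without control 2 and withdrawal 2, the log2 change of Htr4 was -0.71 ± 0.138 (SE), with a 95% interval of -1.02 to -0.40 and an adjusted p of 0.0122 in edgeR. Its log2 change was -0.57 without control 3, where the call was lost (edgeR adjusted p = 0.0517), and with 10 libraries DESeq2 gave an adjusted p of 2.66e-05.

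Htr7 rose in the 8 habenula-rich libraries. It had 42.5, 35.2, 30.2, 38.5 and 24.9 CPM in withdrawal 1, 3, 4, 5 and 6, against 24.5, 11.3 and 15.7 CPM in controls 1, 3 and 4. Groups were apart, as in 23.3% of all tested genes in either direction and 11.9% with withdrawal higher, but withdrawal 6 and control 1 lay close together. The means were 34.3 ± 6.92 CPM in withdrawal and 17.1 ± 6.69 CPM in controls (SD, n = 5 and 3), a log2 change of 1.00 (1.99-fold, SE 0.244, 95% interval 0.45 to 1.54, edgeR adjusted p = 0.0278). Withdrawal 2 had 17.2 CPM and control 2 had 7.08 CPM, and with all 10 libraries the log2 change was 1.10 (edgeR adjusted p = 0.264). The 8-library call was lost without withdrawal 1, 3 or 5 or without control 3 or 4, with log2 changes between 0.78 and 0.99 (edgeR adjusted p from 0.0539 to 0.0903).

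Htr1b also rose in these 8 libraries. It had 9.98, 9.13, 7.51, 8.64 and 11.6 CPM in withdrawal 1, 3, 4, 5 and 6, against 5.73, 3.15 and 5.59 CPM in controls 1, 3 and 4. Every withdrawal library lay above every control, as for Htr7. The means were 9.37 ± 1.53 CPM in withdrawal and 4.82 ± 1.45 CPM in controls (SD, n = 5 and 3), a log2 change of 0.95 (1.93-fold, SE 0.216, 95% interval 0.46 to 1.43, edgeR adjusted p = 0.0213). Control 2, at 25.1 CPM, was the highest of all, and with the 10 libraries the log2 change was 0.11 ± 0.521 (SE), with an adjusted p of 0.933 in edgeR. Without control 3 the 8-library log2 change was 0.72 (edgeR adjusted p = 0.0562).

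**Figure D4:**
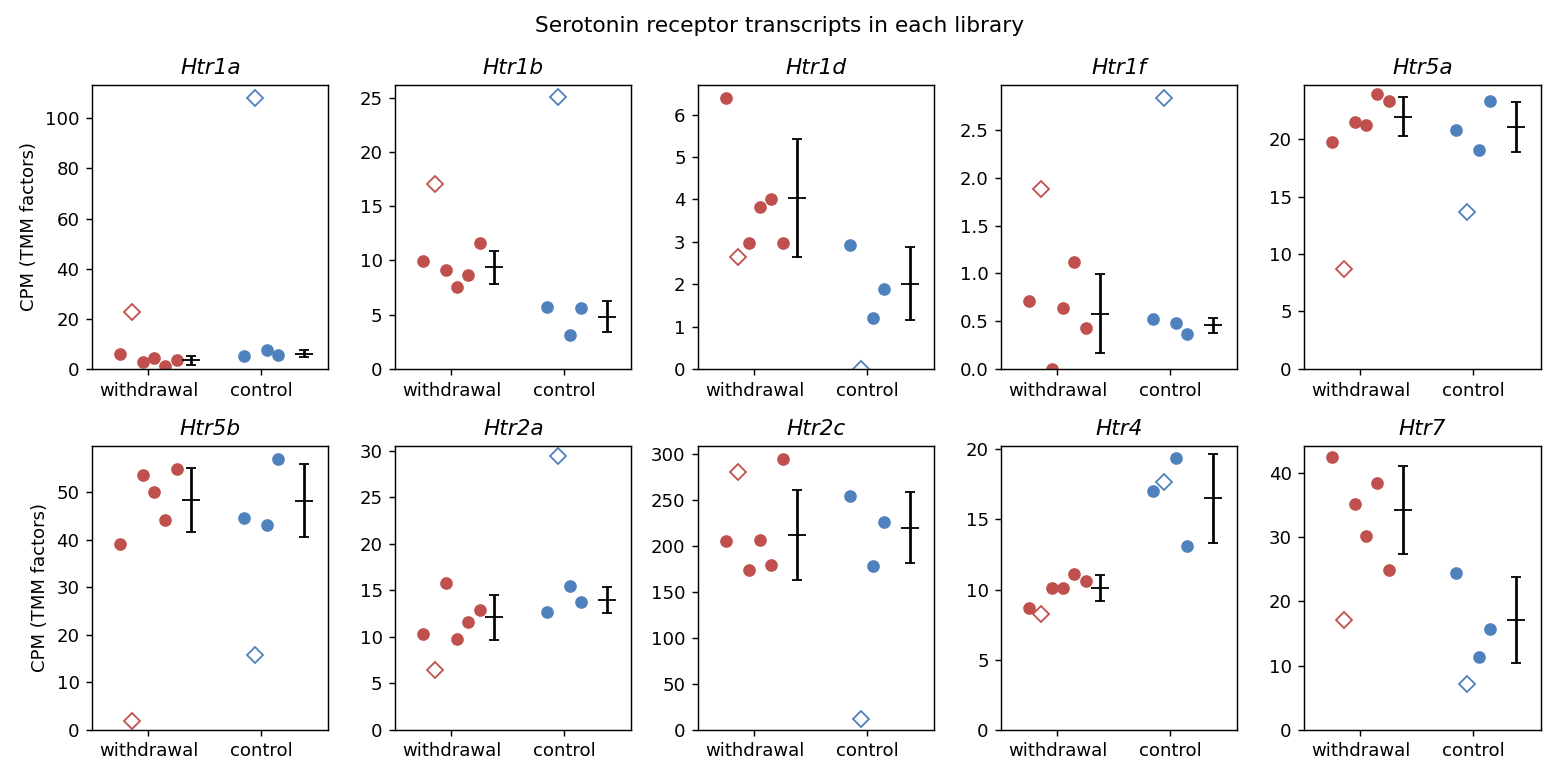
CPM of each of the 10 receptor genes in every library, withdrawal on the left and controls on the right of each panel. Filled circles are the 8 habenula-rich libraries, open diamonds are withdrawal 2 and control 2, and the black bar gives the mean and SD of the filled circles (n = 5 and 3). Htr7 and Htr1b are higher in the filled withdrawal libraries and Htr4 is lower in all 6 withdrawal libraries.

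The DNA before the start sites of Htr1b and Htr7 is shown because these are the receptors that rose in the 8 libraries. The 250 bases upstream of the RefSeq start site (GRCm38.p6, both genes on the minus strand, chr9:81633833-81634082 for Htr1b and chr19:36057361-36057610 for Htr7) read as follows, with CG dinucleotides in capitals.
Htr1b: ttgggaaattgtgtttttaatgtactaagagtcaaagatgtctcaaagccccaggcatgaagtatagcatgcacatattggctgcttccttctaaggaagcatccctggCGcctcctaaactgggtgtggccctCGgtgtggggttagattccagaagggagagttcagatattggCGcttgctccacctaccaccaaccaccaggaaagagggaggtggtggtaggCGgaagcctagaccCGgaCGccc
Htr7: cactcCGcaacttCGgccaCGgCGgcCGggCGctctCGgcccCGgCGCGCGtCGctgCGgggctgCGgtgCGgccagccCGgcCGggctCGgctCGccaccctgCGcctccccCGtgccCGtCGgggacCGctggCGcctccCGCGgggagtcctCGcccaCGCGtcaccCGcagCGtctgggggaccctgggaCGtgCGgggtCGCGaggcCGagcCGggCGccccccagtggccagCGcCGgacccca
The Htr1b window held 6 CG dinucleotides, equal to the median of the 32851 windows of this length in the table, and the Htr7 window held 41, more than 98.9% of them. Both windows were searched on both strands for TATAAA (in 12.4% of all windows), GGGCGG (32.7%), TGACGTCA (1.55%) and AGAACA (16.1%), and neither held any of these. None of the motifs contains another.

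Htr1d was under the level required for the test and is described with its counts. It had 6.38, 2.96, 3.81, 4.002 and 2.98 CPM in withdrawal 1, 3, 4, 5 and 6, against 2.93, 1.21 and 1.89 CPM in controls 1, 3 and 4. The groups did not overlap in CPM in these 8 libraries, as in 11.9% of all tested genes with withdrawal higher. The lowest withdrawal library in CPM (withdrawal 3, 2.96 CPM from 59 counts) and the highest control (control 1, 2.93 CPM from 45 counts) were close. When genes were kept by edgeR's filterByExpr instead, the log2 change was 1.001 in 8 libraries (SE 0.340, edgeR adjusted p = 0.0838) and 1.33 in 10 libraries (edgeR adjusted p = 0.377). Htr1f, with 0 to 52 counts in a library, changed by 0.34 on the log2 scale in 8 libraries and by -0.42 in 10 (adjusted p of 0.795 and 0.830 in edgeR).

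Htr5b, Htr2c and Htr5a did not pass in the 8 libraries, and their log2 changes lay within 0.059 of 0. Htr5b averaged 48.4 ± 6.72 CPM in withdrawal and 48.2 ± 7.67 CPM in controls, a log2 change of -0.0043 with a 95% interval of -0.29 to 0.29 (edgeR adjusted p = 0.986). Htr2c averaged 212 ± 48.8 CPM in withdrawal and 220 ± 38.7 CPM in controls, a log2 change of -0.059 with an interval of -0.45 to 0.34 (edgeR adjusted p = 0.851). Htr5a averaged 21.97 ± 1.70 CPM in withdrawal and 21.1 ± 2.16 CPM in controls, a log2 change of 0.053 with an interval of -0.16 to 0.26 (edgeR adjusted p = 0.739). With 10 libraries the interval of Htr5b widened to between -1.48 and 1.51, and that of Htr2c to between -0.92 and 1.75.

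Htr1a and Htr2a did not pass in either comparison. Htr1a had 5.91, 2.61, 4.22, 1.17 and 3.62 CPM in withdrawal 1, 3, 4, 5 and 6, against 5.27, 7.57 and 5.59 CPM in controls 1, 3 and 4. Withdrawal 1 lay inside the range of the controls and the other 4 lay below it. The log2 change was -0.83 in 8 libraries (SE 0.392, edgeR adjusted p = 0.186) and -2.23 in 10 libraries (SE 1.04, edgeR adjusted p = 0.332), where control 2 alone had 108 CPM. Htr2a averaged 12.1 ± 2.39 CPM in withdrawal and 13.9 ± 1.42 CPM in controls in the 8 libraries, a log2 change of -0.21 (edgeR adjusted p = 0.393), and with 10 libraries the log2 change was -0.68 (edgeR adjusted p = 0.304).

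Marker lists of other cells differed between the groups to different degrees in the 8 libraries, and the thalamic sums overlapped. Lateral habenula markers summed to between 647 and 751 CPM in withdrawal and between 466 and 608 CPM in controls, with 1 of 5 rising (Gap43). Of these 5, 3 had log2 changes above 0 and 2 below 0, with a median of 0.070. Over all 10 libraries Gap43 alone averaged 217 CPM in withdrawal and 102 CPM in controls. Thalamic markers summed to between 199.7 and 600.3 CPM in withdrawal and between 214 and 351 CPM in controls, with 1 of 6 rising (Lef1). All 6 had log2 changes above 0 (median 0.67), 4 had an unadjusted p under 0.05 in edgeR and DESeq2 called 1. Withdrawal 1 and 5, at 501 and 600.3 CPM the highest for the thalamic list, were the 2 highest for Htr7 in the other order. Withdrawal 6 had a thalamic sum of 199.7 CPM, below all 3 controls, and 24.9 CPM of Htr7, above all 3 controls. Control 4 had a higher thalamic sum than control 1 (351 and 236 CPM) and less Htr7 (15.7 and 24.5 CPM). Lateral habenula sums of 466, 517 and 608 CPM in controls 3, 4 and 1 stood beside 11.3, 15.7 and 24.5 CPM of Htr7. Withdrawal 1, 3 and 5 had the highest sums (707, 751 and 733 CPM) and the most Htr7 (42.5, 35.2 and 38.5 CPM). Withdrawal 6 had a higher sum than withdrawal 4 (655 and 647 CPM) and less Htr7 (24.9 and 30.2 CPM). Gap43 is part of these lateral habenula sums and was also the gene whose profile was most like Htr7 (difference 0.15). The sums are therefore not an independent measure to set beside Htr7. The part of lateral habenula or thalamic tissue in the Htr7 level was not tested. Hippocampal and cortical markers summed to between 364 and 454 CPM in withdrawal and between 539 and 1044 CPM in controls, with 4 of 7 tested members falling. Control 3, at 1044 CPM the highest of these for that list, was the highest for Htr4 and Htr1a and the lowest for Htr7, Htr1b and Htr1d. Outside the 8 libraries, control 2 summed to 2719 CPM for that list and had the most Htr1b of all 10 libraries (25.1 CPM). It also had the most Htr1a (108 CPM) and the least Htr7 (7.08 CPM).

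Oligodendrocyte markers summed to between 5512 and 9435 CPM in withdrawal and between 10510 and 11637 CPM in controls, with 5 of 5 falling, and 2 of 5 astrocyte markers fell (sums of 1312 to 1525 CPM and 1687 to 1723 CPM). Medial habenula markers summed to between 1642 and 2470 CPM in withdrawal and between 1771 and 2448 CPM in controls. All 12 had a log2 change above 0 (median 0.12), but none passed in edgeR or DESeq2, and 0 had an unadjusted p under 0.05. With 10 libraries all 12 were above 0 as well, with a median of 0.27 and none called. None of the markers of the lateral habenula, thalamic, hippocampal and cortical, oligodendrocyte, astrocyte or medial habenula lists was at 0 counts in any library. Of the other lists with 8 libraries, none of 7 choroid plexus markers, 5 GABAergic, 5 microglial or 5 ependymal markers passed in edgeR (unadjusted p under 0.05 for 0, 1, 2 and 2 of them, and DESeq2 calls for 0, 0, 1 and 0), and 1 of 6 endothelial and mural markers fell. All 7 choroid plexus, 5 GABAergic and 5 microglial markers had log2 changes below 0 (medians of -1.07, -0.61 and -0.22). All 5 ependymal markers lay above 0 (median 0.085). Choroid plexus sums were 111 to 9768 CPM in withdrawal and 7387 to 10276 CPM in controls. The part of these cell types in the changes of Htr7, Htr1b and Htr4 was not tested.

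**Figure D5:**
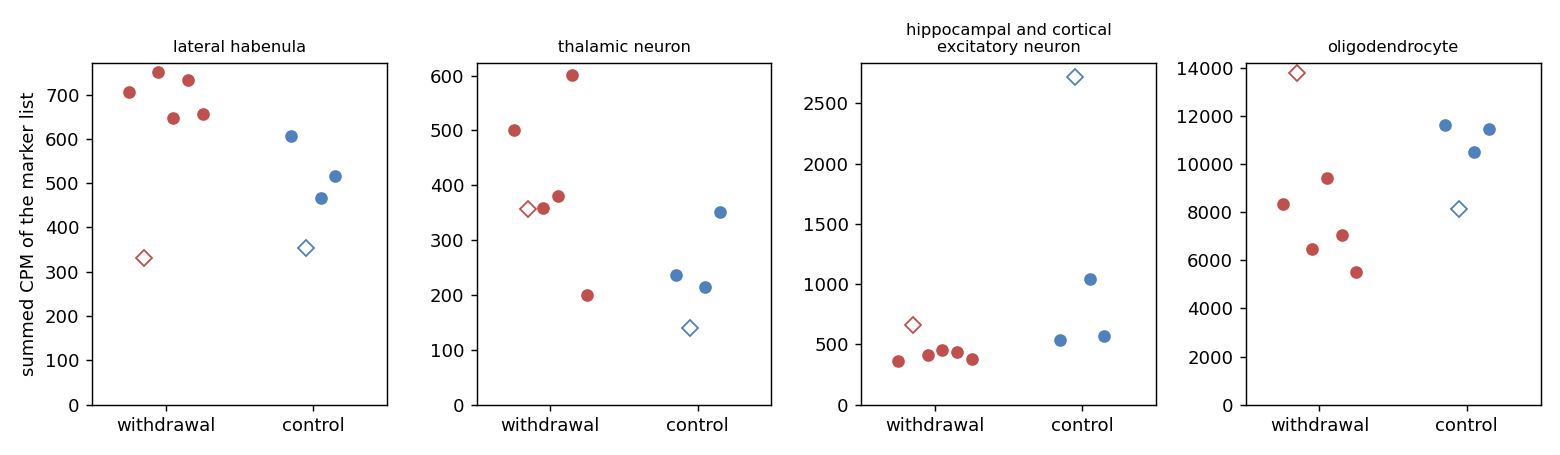
Summed CPM of the marker lists of lateral habenula, thalamic neurons, hippocampal and cortical excitatory neurons, and oligodendrocytes in each library, withdrawal on the left and controls on the right. Filled circles are the 8 habenula-rich libraries and open diamonds are withdrawal 2 and control 2. Among the filled circles the groups do not overlap for the lateral habenula, hippocampal and cortical, and oligodendrocyte lists.

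Among genes that make, move and break down serotonin, 9 of 14 were abundant enough to be tested. None passed in edgeR with 10 libraries, 0 had an unadjusted p under 0.05 and DESeq2 called 0. The 3 with the smallest p were Slc18a2, the vesicular monoamine transporter, Pts, an enzyme of the tetrahydrobiopterin cofactor pathway, and Maob, a monoamine oxidase, whose log2 changes were 0.34, 0.085 and 0.40 (adjusted p of 0.549 to 0.606 in edgeR). With 8 libraries none passed in edgeR, 2 had an unadjusted p under 0.05 and DESeq2 called 1. Maoa, the oxidase that degrades serotonin, then had 123 ± 4.07 CPM in withdrawal and 103 ± 12.4 CPM in controls, a log2 change of 0.25 (edgeR adjusted p = 0.0528), and was named after its values were seen. The synthesis enzyme Tph2 lay between 0.116 and 1.80 CPM over all 10 libraries.

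Of 24 G proteins and effectors that act downstream of the receptors, 23 were tested. None passed in edgeR with 10 libraries, 5 had an unadjusted p under 0.05 (15.4% of all tested genes) and DESeq2 called 3 (2.55% of all tested genes). Gnai2 and Gnas, which encode alpha subunits of Gi and Gs, and the adenylyl cyclase gene Adcy9 changed by 0.27, 0.27 and -1.53 on the log2 scale, with adjusted p of 0.229 to 0.258 in edgeR. With 8 libraries 4 of the 23 rose and 5 fell, beside 6.36% and 7.63% of all tested genes. The 4 that rose were Gnas (log2 change 0.30), the cyclase Adcy8 (0.47), the potassium channel Kcnj9 (0.53) and Gnai2 (0.20). The 5 that fell were the cyclases Adcy1 (-2.62) and Adcy9 (-1.01), the potassium channels Kcnj6 (-1.46) and Kcnj3 (-0.81), and the phospholipase Plcb1 (-0.75), with edgeR adjusted p between 0.0012 and 0.0393 over the 9. The median of this list was 0.064 with 8 libraries. Adcy1 averaged 109 ± 27.6 CPM in withdrawal and 667 ± 313 CPM in controls, and had 863 CPM in withdrawal 2 and 2121 CPM in control 2, the library with the highest sum of hippocampal and cortical markers (2719 CPM). The 7 tested markers of that list had a median log2 change of -1.34 with 8 libraries, and their part in the changes of these effectors was not tested.

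Among 11 receptor partners, RNA editing enzymes and regulators of Htr1a, none passed in edgeR with 10 libraries, 2 had an unadjusted p under 0.05 and DESeq2 called 0. S100a10, a small protein that binds Htr1b and Htr4, had a log2 change of 0.49, the scaffold gene Dlg4 -0.71 and the arrestin gene Arrb1 0.15 (edgeR adjusted p from 0.306 to 0.328). With 8 libraries 1 rose, Adar, which encodes an RNA editing enzyme, at 184 ± 5.51 CPM in withdrawal and 160 ± 3.90 CPM in controls (log2 change 0.20, edgeR adjusted p = 0.0231). The 4 receptor genes outside the 10 were all under the tested level. Htr3a, a subunit of the ion channel receptor, lay between 0.634 and 2.60 CPM in the 8 libraries, against 2.33 CPM in withdrawal 2 and 8.72 CPM in control 2. Htr6, a Gs-coupled receptor, lay between 0.638 and 3.60 CPM over all 10 libraries, Htr2b reached at most 0.348 CPM and Htr3b at most 0.163 CPM.

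The genes with the most similar profile were found by the root mean square difference between log2 CPM values centred on their mean over the 10 libraries, which share the contrast between withdrawal 2, control 2 and the rest. For Htr5b, whose log2 CPM spanned 4.95, these were Umodl1 (difference 0.14) and Nr4a2 (0.21). The genes nearest to Htr2c were Tcaf2 (0.18) and Eno4 (0.21), and those nearest to Htr5a were Robo1 (0.083) and Pam (0.11). Htr7 was most like Gap43 (0.15), a growth cone protein that is also on the lateral habenula list, and Ankrd55 (0.19). For Htr4 they were Tm6sf2 and Ky (0.18 each), for Htr2a Cabp1 (0.16) and Parm1 (0.18), for Htr1b Inka1 (0.31) and Cpne5 (0.36), and for Htr1a Lamp5 (0.46) and Vxn (0.53).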

How the data were processed

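The authors deposited raw read counts per Ensembl gene and FPKM for each library, per the file headers, in a table of 56691 genes. Per the submitters' processing notes, cutadapt 1.9.1, HISAT2 2.2.1 and HTSeq 0.6.1 were used with the mouse build mm39. The sources used here name no annotation release, gene lengths or strand setting, so overlapping antisense genes cannot be told apart. Symbols came from GENCODE M21 (52073 identifiers named), which is on another build, so no gene coordinates are given. RefSeq promoters (GRCm38.p6) matched 8 of the 10 receptor genes.

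Genes averaging 1 FPKM or more across the libraries (14928 genes, at least 99.05% of each library's counts) were tested with edgeR 4.0.16 in R 4.3.3. The test was the 2-sided quasi-likelihood test with TMM factors and Benjamini-Hochberg adjustment over all tested genes, at a threshold of 0.05. CPM used the same TMM factors, and log2 CPM profiles a prior count of 2. DESeq2 1.42.0 on the counts and limma 3.58.1 on log2(FPKM + 1) and log2(FPKM + 0.1), other filters and normalization, a replicate block and leaving out libraries were alternatives. The edgeR script was tested on simulated data. The labels give 1 mouse per library. The labels name no molecular identifiers, so counts of 0 and their limits cover counting error only. The receptor genes, lists and the set of 8 libraries were chosen with earlier results of these data known. All 10 receptors are named, with the 3 genes of smallest p in each pathway list and the 2 nearest profiles per tested receptor. Genes named beyond this because they passed in 8 libraries were chosen after their values were seen.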

Additional observations from a re-analysis of the deposited data

Results flagged for a closer look

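In 8 of the 20 combinations of receptor gene and group, the highest or lowest library lay further from its nearest neighbour than Dixon's 95% limit allows. Chance gives about 1 in 20, but the genes share their libraries, and 7 of the 8 cases are control 2 or withdrawal 2, which were already set apart on these data, so they are a description of that split. Control 2 was the high library for Htr1a (108 CPM), Htr1b (25.1 CPM), Htr1f (2.83 CPM) and Htr2a (29.4 CPM) among the 4 controls. Among the 6 withdrawal libraries, withdrawal 2 was high for Htr1a (22.7 CPM) and low for Htr5a (8.69 CPM) and Htr5b (1.74 CPM). Withdrawal 1 was the high library for Htr1d (6.38 CPM).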

How the results depend on the processing

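Of the 8 tested receptors, edgeR called 0 with 10 libraries (3 at an unadjusted p under 0.05) and 3 with 8. With 10 libraries DESeq2 called 1, and leaving out both control 2 and withdrawal 2 gave 3. With 10 libraries DESeq2 gave Htr1a and Htr1b no p. With 8 libraries, DESeq2, DESeq2 size factors, filterByExpr, no filter and both limma fits each called 3. Over all genes these fits called between 1492 (limma on log2(FPKM + 0.1)) and 2899 (DESeq2). Leaving out each library in turn gave 0 to 1 called receptors with 10 libraries and 0 to 3 with 8. The 0 with 8 libraries was without control 3, where edgeR gave 3 receptors an unadjusted p under 0.05, as it did 3454 of the 14928 genes. Over all genes, 31 changed with 10 libraries, 380 in DESeq2, 8 and 6 in limma on log2(FPKM + 1) and log2(FPKM + 0.1), 4 to 911 with 1 library left out (911 without withdrawal 2) and 2088 without control 2 and withdrawal 2. With 8 libraries 2088 changed, and 872 to 2911 with 1 library left out (872 without control 3). Same-numbered libraries did not deviate together in every pair (correlations of -0.13 to 0.31 with 10 libraries), and 2 of 4 controls correlated best with their own number. With the replicate block edgeR called 0 genes with 10 libraries (1914 at an unadjusted p under 0.05), and with 8 it called 951 genes and 1 receptor, Htr7, while Htr1b had a log2 change of 0.90 (adjusted p = 0.0842) and Htr4 of -0.77 (adjusted p = 0.0557).

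With 10 libraries and 1 left out, log2 changes lay between -3.17 and 0.12 for Htr1a, -0.19 and 1.13 for Htr1b, -0.81 and -0.33 for Htr2a, 0.016 and 0.69 for Htr2c, -0.88 and -0.70 for Htr4, -0.10 and 0.19 for Htr5a, -0.26 and 0.26 for Htr5b, and 0.87 and 1.47 for Htr7. With 8 libraries they lay between -1.10 and -0.60 for Htr1a, 0.72 and 1.08 for Htr1b, -0.32 and -0.13 for Htr2a, -0.21 and 0.059 for Htr2c, -0.85 and -0.57 for Htr4, -0.013 and 0.13 for Htr5a, -0.077 and 0.14 for Htr5b, and 0.78 and 1.33 for Htr7. Signs turned for uncalled receptors: without control 2 and withdrawal 2, Htr2c had -0.059 and Htr5b -0.0043. With the replicate block Htr5a had -0.17 (10 libraries) and -0.019 (8 libraries), and Htr5b -0.65 (10 libraries). In limma Htr5b had -0.18 and -0.29 with 10 libraries and 0.017 and 0.018 with 8. The causes were not tested. Receptors with few counts, such as Htr1f, are limited by depth.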

Other observations

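Slc22a3, a transporter that takes up monoamines with low affinity, was under the tested level and was named after its values were seen. It had between 1.81 and 3.76 CPM in the 6 withdrawal libraries, against 1.30, 0.981, 0.848 and 1.25 CPM in controls 1 to 4, so the groups did not overlap in all 10 libraries, as in 3.31% of the tested genes in either direction.

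Tph1, the serotonin synthesis enzyme of the pineal gland, had 34.9 CPM in withdrawal 3 and 3.88 CPM in withdrawal 6, against at most 0.911 CPM in the other 8 libraries. The pineal transcription factor Crx had 4.82 CPM in withdrawal 3 and 1.12 CPM in withdrawal 6, against at most 0.195 CPM in the other 8. The other pineal markers were Asmt and Aanat. Asmt was above 0 counts in withdrawal 3 but at 0 in withdrawal 6. Aanat lay between 0.867 and 1.96 CPM in the 6 withdrawal libraries, with a median of 1.43 CPM. Lmx1b was also highest in withdrawal 3 and 6, at 5.82 and 3.78 CPM. The serotonergic neuron gene Fev stayed at or below 0.298 CPM in all 10.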
